A study of Homo sapiens with 8 samples.

Results

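The 10 genes described here encode main cytosolic heat shock proteins of the HSP70 and HSP90 families and some relatives of HSP70. A small heat shock protein and the transcription factor of the heat shock response are also among them. The 10 genes were HSPA8, HSPA1A, HSPA1B, HSPA4, HSPA9, HSPH1, HSP90AA1, HSP90AB1, HSPB1 and HSF1, taken by name from 19043 genes measured. HSPA8 had been seen among the strong falls before the list was drawn up, so the genes were chosen by their measured log2 ratios to the controls, which are given as a description, without a test. All 10 genes were matched to probes, and all 10 were well above background on all 8 arrays.

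Gene expression was measured in A549, a cell line from a human lung adenocarcinoma. The study asked how the ethanol extract of Descurainia sophia seeds (EEDS), and helveticoside, a cardiac glycoside purified from that extract, alter gene expression in these cells. A first series of 4 arrays held cells given EEDS at 1.25, 5 or 20 μg/mL and their vehicle control, and the other series held cells given helveticoside at 3.75, 15 or 60 nM and their own vehicle control. RNA from 3 cultures was pooled for each array and each dose had 1 array, so no spread between cultures could be computed. Exposure lasted 24 h or 48 h, since the written sources differ. All groups were the same line, without genetic change. Each agent was given in 1 series only, so agent and series cannot be told apart. In such bulk RNA, fewer cells expressing a gene and less of its RNA per cell cannot be told apart either.

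HSP70 proteins bind exposed hydrophobic stretches of unfolded proteins and release them in a cycle driven by ATP, with J-domain proteins delivering clients and nucleotide exchange factors resetting the cycle. HSP90 acts later and holds a narrower set of clients, among them kinases and steroid receptors, with the help of co-chaperones. HSF1 is held inactive in unstressed cells and, when proteins misfold, forms trimers that bind heat shock elements, arrays of inverted NGAAN units, and switches on the inducible members. Cardiac glycosides are known for inhibiting the sodium pump of the plasma membrane.

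HSPA8, HSP90AA1 and HSP90AB1 held such an array of 3 units in the bases before a gene start, matching in letters what HSF1 is known to bind. The windows of HSPA8 and HSP90AA1 are shown, beside those of HSPA1A and HSPA4, because these genes stand for the different patterns described next. Windows of 250 bases before to 50 bases after each RefSeq gene start on GRCh38.p14 were searched on both strands for 3 alternating units (GAA, TTC, GAA or TTC, GAA, TTC, each pair parted by any 2 bases) and for 2 units (GAANNTTC or TTCNNGAA). A 3-unit match always contains a 2-unit match. Of 35116 windows of all genes, 0.49% held 3 units and 13.5% held 2. For HSF1 no window was used. The first 250 bases, ending just before the start, are printed 5′ to 3′ on the strand of the gene, with matches to 3 units, or in HSPA1A to 2 units, in capitals.
HSPA8 (chr11:123062137-123062386, minus strand): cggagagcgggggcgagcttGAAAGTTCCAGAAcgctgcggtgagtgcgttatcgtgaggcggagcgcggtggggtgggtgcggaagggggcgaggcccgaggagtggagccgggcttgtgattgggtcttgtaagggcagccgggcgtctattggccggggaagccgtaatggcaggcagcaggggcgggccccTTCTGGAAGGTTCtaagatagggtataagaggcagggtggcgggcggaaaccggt
HSP90AA1 (chr14:102087045-102087294, minus strand): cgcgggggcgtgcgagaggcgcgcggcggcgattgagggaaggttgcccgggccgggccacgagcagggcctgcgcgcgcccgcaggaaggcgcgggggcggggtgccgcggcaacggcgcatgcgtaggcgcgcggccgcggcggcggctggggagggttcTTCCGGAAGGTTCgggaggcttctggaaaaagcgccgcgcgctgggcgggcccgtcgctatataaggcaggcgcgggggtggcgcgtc
HSPA1A (chr6:31815293-31815542, plus strand): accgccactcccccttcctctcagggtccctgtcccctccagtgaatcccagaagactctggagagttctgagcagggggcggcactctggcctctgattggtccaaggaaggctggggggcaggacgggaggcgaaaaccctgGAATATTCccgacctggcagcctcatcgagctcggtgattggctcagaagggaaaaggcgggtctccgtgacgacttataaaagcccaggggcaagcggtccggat
HSPA4 (chr5:133051763-133052012, plus strand): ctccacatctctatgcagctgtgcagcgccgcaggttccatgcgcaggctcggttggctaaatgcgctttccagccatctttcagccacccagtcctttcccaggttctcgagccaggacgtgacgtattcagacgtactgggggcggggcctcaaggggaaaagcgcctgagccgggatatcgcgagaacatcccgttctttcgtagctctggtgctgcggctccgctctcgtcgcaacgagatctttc

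In HSPA8 the 3-unit matches began 230 and 55 bases before the start, and in HSP90AA1 the match began 88 bases before the start nearer to the body of the gene. The window of the other HSP90AA1 start held no match of 3 or 2 units. The brightest HSP90AA1 probe and a further probe are annotated to the same transcript, and another further probe to a different one. Which of these starts gives either transcript was not tested, so the printed window may not be that of the brightest probe. HSP90AB1 held its matches before the most downstream of its 3 annotated starts (chr6:44247693-44247942), 165 and 112 bases upstream. HSPA1A, HSPA1B and HSPB1 held 2 units only, at 106, 105 and 182 bases before the start, and in HSPA9 a 2-unit match spanned the start. HSPA4 and HSPH1 held neither. The TATA sequence TATAAA was found in HSPA1A and HSPA1B and in 7.33% of all windows. These are matches of letters, and nothing on the binding of HSF1 was measured.

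On the arrays the genes parted into sets, each gene read from its brightest probe. HSPA8, HSPA1A and HSPA1B were much lower after both agents. HSP90AA1, HSP90AB1 and, less so, HSPB1 were about 2- to 3-fold lower at the middle and top doses. Further probes of HSP90AA1 were 4.1- to 4.5-fold lower at those helveticoside doses. HSPA4, HSPA9 and HSF1 were little changed or higher at the top dose. HSPH1 was lower at the middle dose and returned toward its control at the top dose. At 1.25, 5 and 20 μg/mL EEDS, 3, 6 and 6 of the 10 genes were more than 2-fold lower than the control, where 3.71%, 8.53% and 14.6% of all genes were. At 3.75, 15 and 60 nM helveticoside the counts were 1, 6 and 5, beside 4.34%, 8.11% and 12.9% of all genes. None of the 10 was more than 2-fold higher at any dose, beside 4.21%, 7.35% and 13.3% of all genes for EEDS and 3.4%, 7.13% and 10.8% for helveticoside. The median log2 ratio of the 10 genes was -0.59, -1.27 and -1.11 along the EEDS doses and -0.29, -1.45 and -1.16 along the helveticoside doses, while that of all genes lay between -0.04 and 0.02. Since the list was drawn up with these contrasts known, nothing is read from these counts.

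**Figure D1:**
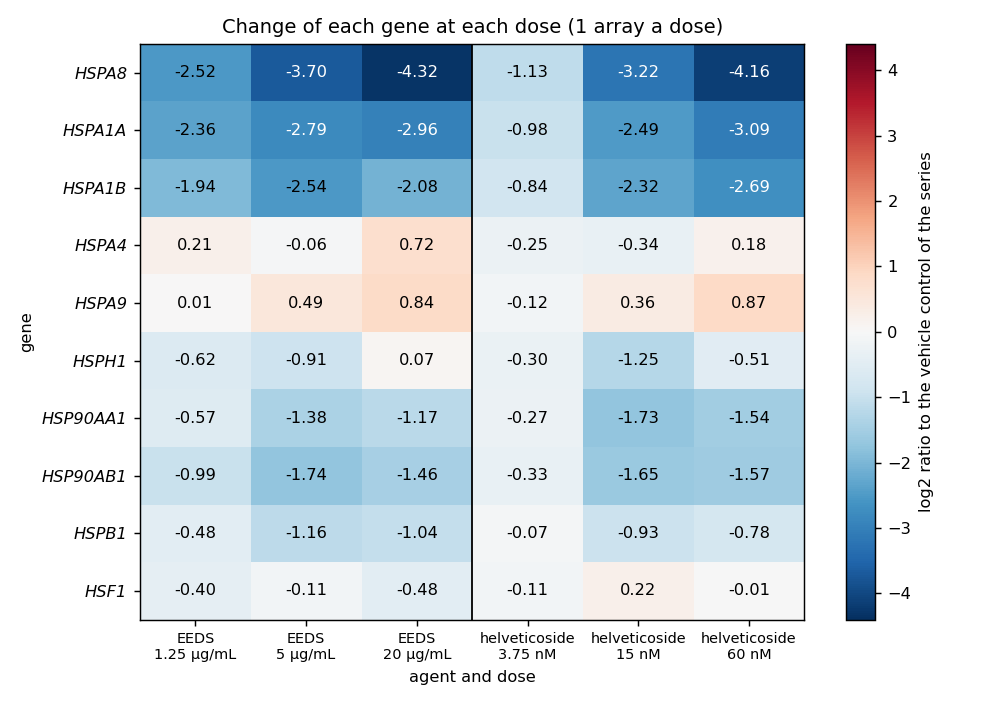
Log2 ratio of each of the 10 genes (rows) to the vehicle control of its own series, for the 3 EEDS doses in μg/mL and the 3 helveticoside doses in nM (columns, 1 array each); blue is lower and red higher than the control. The top 3 rows hold the lowest ratios, down to -4.32 for HSPA8, and the HSPA9 row the highest, up to 0.87.

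The scale of the values was checked first. Normalized signals, in arbitrary units, were quantile-normalized over the 8 arrays and serve to compare arrays for 1 probe, not genes with each other, because probes differ in their response. With no replicate, the difference between the 2 control arrays gave the only measure of spread between like samples. Over the 11487 genes that were clearly detected, that is well above background on each of the 8 arrays, it had an SD of 0.48 on the log2 scale, and it includes whatever differed between the series. For 9 of the 10 genes the controls differed by less than that. The exception was the brightest probe of HSP90AB1, for which the helveticoside control minus the EEDS control was -0.54 on the log2 scale, while for the further probe of that gene it was 0.0017.

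HSPA8 encodes HSC70, the constitutive cytosolic HSP70 that serves ordinary folding, vesicle uncoating and chaperone-mediated autophagy. Its normalized signal was 30860 in the EEDS control and 5394, 2369 and 1550 at the rising EEDS doses. In the helveticoside series it was 26260 in the control and 11990, 2824 and 1474 at the rising doses. The signal was lower at each higher dose of both agents, and every treated array lay below both controls. The log2 ratios were -2.52, -3.70 and -4.32 for EEDS and -1.13, -3.22 and -4.16 for helveticoside, so that the signal was 19.9-fold and 17.8-fold lower at the top doses. Among the 11487 clearly detected genes, HSPA8 had the 14th largest fall at the top EEDS dose and the 11th at the top helveticoside dose. Its neighbours in these orders were CLDN2, with a log2 ratio of -4.33, and B4GALNT1, with -4.26, for EEDS, and RIMBP3, with -4.29, and B4GALNT1, with -4.12, for helveticoside. HSPA8 was measured by 1 probe, which is annotated to the transcript of the shorter isoform alone. Probe sequences were not used here, so whether the probe also reads the full-length transcript was not tested.

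HSPA1A and HSPA1B are neighbouring genes of the major histocompatibility region that encode the same stress-inducible HSP70 protein. HSPA1A had a normalized signal of 22710 in the EEDS control, then 4424, 3294 and 2922, and of 21260 in the helveticoside control, then 10790, 3791 and 2505. Its log2 ratios were -2.36, -2.79 and -2.96 for EEDS and -0.98, -2.49 and -3.09 for helveticoside. Most of the difference after EEDS was there at the lowest dose, whereas after helveticoside the ratio went on down at each dose. The array carried 10 spots of this probe, and their SD within an array was 0.0309 to 0.0651 on the log2 scale, which measures spot error and not the spread between cultures.

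HSPA1B had a normalized signal of 12230 in the EEDS control, then 3194, 2102 and 2888, and of 9602 in the helveticoside control, then 5346, 1929 and 1486. Its log2 ratios were -1.94, -2.54 and -2.08 for EEDS and -0.84, -2.32 and -2.69 for helveticoside. Every treated array lay below both controls, with the lowest EEDS value at the middle dose. The transcripts are nearly identical, so a probe of either gene may read both, and the values cannot be assigned to the copies with certainty.

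HSPA4 and HSPH1 encode proteins of the HSP110 branch, which act as nucleotide exchange factors for HSP70 and hold unfolded proteins in solution. HSPA4 had a normalized signal of 22920, 26510, 21990 and 37830 from the EEDS control to the top dose, and of 23340, 19600, 18410 and 26440 along the helveticoside doses. The top dose was the highest array of each series. Its log2 ratio there was 0.72 for EEDS and 0.18 for helveticoside, and a dimmer probe of the gene gave 0.58 and 0.10. The helveticoside value and the values at the lower doses were within the spread of the controls. HSPH1 had a normalized signal of 10540, 6869, 5611 and 11090 along the EEDS doses and of 11680, 9499, 4917 and 8179 along the helveticoside doses. Its log2 ratio at the middle dose was -0.91 for EEDS and -1.25 for helveticoside. From the middle to the top dose its signal was 1.98-fold higher with EEDS and 1.66-fold higher with helveticoside. At the top EEDS dose it stood at a log2 ratio of 0.07, and at the top helveticoside dose at -0.51. A further probe gave 0.08 and -0.80.

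HSPA9 encodes mortalin, the HSP70 of the mitochondrial matrix, which pulls imported proteins through the inner membrane. Its normalized signal was 5181, 5208, 7280 and 9293 along the EEDS doses and 5071, 4660, 6518 and 9266 along the helveticoside doses. In both series the middle and the top dose lay above both controls. The log2 ratio at the middle dose was 0.49 for EEDS and 0.36 for helveticoside, about the size of the spread of the controls, and at the lowest dose it was 0.01 and -0.12. The log2 ratio at the top dose was 0.84 for EEDS and 0.87 for helveticoside, the highest of the 10 genes for each agent. When arrays were scaled to their 75th percentile these values were 1.05 and 1.15, past 2-fold.

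**Figure D2:**
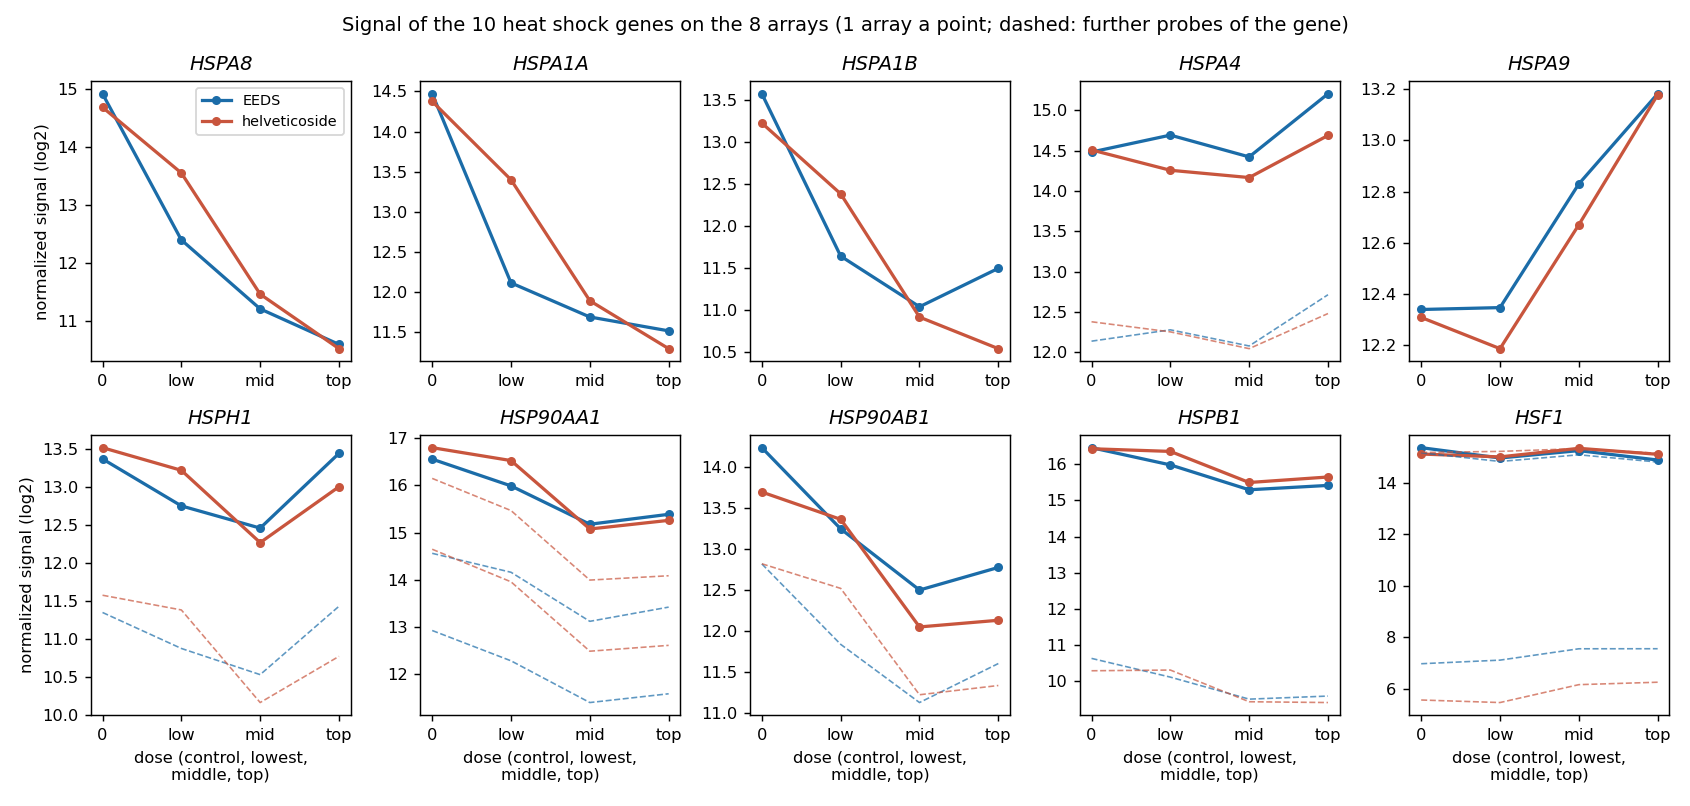
Log2 normalized signal of each of the 10 genes (panels) on the 8 arrays, by dose step from control (0) to top, with EEDS in blue and helveticoside in red; each point is 1 array, and dashed lines are further probes of the gene. HSPA8 is lower at each step under both agents, whereas HSPH1, HSP90AA1, HSP90AB1 and HSPB1 are lowest at the middle dose.

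HSP90AA1 and HSP90AB1 encode the stress-responsive and the constitutive form of cytosolic HSP90. HSP90AA1 had a normalized signal of 96450, 65080, 37040 and 42850 along the EEDS doses and of 114200, 94440, 34540 and 39210 along the helveticoside doses. The signal was lowest at the middle dose in both series, with log2 ratios of -0.57, -1.38 and -1.17 for EEDS and of -0.27, -1.73 and -1.54 for helveticoside. The further probes of the gene gave log2 ratios of -1.14 and -1.34 at the top EEDS dose and of -2.06 and -2.04 at the top helveticoside dose, against -1.17 and -1.54 for the brightest probe. The same further probes read 1.59 and 1.72 higher on the log2 scale in the helveticoside control than in the EEDS control, where the brightest probe read 0.24 higher. Probes of this gene therefore disagreed on its level between the series more than on its change within them.

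HSP90AB1 had a normalized signal of 19300, 9704, 5781 and 7000 along the EEDS doses and of 13250, 10520, 4230 and 4475 along the helveticoside doses. Its log2 ratios were -0.99, -1.74 and -1.46 for EEDS and -0.33, -1.65 and -1.57 for helveticoside. The value at 3.75 nM was within the spread of the controls and the others were not. A further probe gave -1.22 at the top EEDS dose and -1.49 at the top helveticoside dose. Set against the control of the other series, the ratios of the brightest probe at the top doses were -0.92 and -2.11. The controls differed by -0.54 for that probe and by 0.0017 for the further probe.

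HSPB1 encodes HSP27, a small heat shock protein that forms oligomers and keeps unfolding proteins from aggregating. Its normalized signal was 89940, 64670, 40180 and 43660 along the EEDS doses and 88090, 83710, 46180 and 51290 along the helveticoside doses. At the middle dose the log2 ratio was -1.16 for EEDS and -0.93 for helveticoside, and at the top dose -1.04 and -0.78. As reported, the gene was thus more than 2-fold lower with EEDS at the upper doses, and under that limit with helveticoside at all doses. Over the ways of processing, the EEDS ratios ran from -1.18 to -0.94 at 5 μg/mL and from -1.04 to -0.93 at 20 μg/mL. Both ranges cross the 2-fold limit, so that call depends on the processing. A dimmer probe gave -1.04 and -0.88 at the top doses.

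HSF1, the master factor of the heat shock response, had a normalized signal of 42510, 32190, 39260 and 30460 along the EEDS doses and of 35810, 33130, 41760 and 35540 along the helveticoside doses. No dose order was seen, and the log2 ratios of this brightest probe, from -0.48 to 0.22, did not exceed the spread of the controls. A second bright probe gave ratios from -0.36 to 0.15. A further, dim probe was well above background on the EEDS arrays, with log2 ratios of 0.14, 0.58 and 0.58 along the EEDS doses. These were opposite in sign to those of the brightest probe, and at 5 and 20 μg/mL they exceeded the spread of the controls. On some helveticoside arrays the dim probe was not well above background, so no helveticoside ratio is given for it. The arrays measured the RNA of HSF1, and its trimer formation, modification and place in the cell were not measured.

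Several members shared a turn between the middle and the top dose. HSPA4, HSPH1, HSP90AA1, HSP90AB1 and HSPB1 were lowest at the middle dose of both agents, which is 5 of 10 genes, beside 6.67% of the 11487 clearly detected genes. With EEDS alone HSPA1B did so too, and 12.5% of the detected genes were lowest at the middle dose of EEDS and 14.6% at that of helveticoside. The size of the turn differed. The signal at the top dose over that at the middle dose was 1.16 and 1.14 in HSP90AA1 for EEDS and helveticoside, 1.21 and 1.06 in HSP90AB1 and 1.09 and 1.11 in HSPB1. These steps are smaller than the spread between the controls, in contrast to those of HSPH1 and HSPA4. In HSPA4 the ratio was 1.72 and 1.44. HSPH1, HSP90AA1, HSP90AB1 and HSPB1 kept the pattern under all 8 ways of processing that were tried and HSPA4 under 7, but a dimmer probe of HSPB1 was lowest at the top helveticoside dose. The doses were the same arrays that chose the list, and the count was added after seeing the data, so it is a description.

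**Figure D3:**
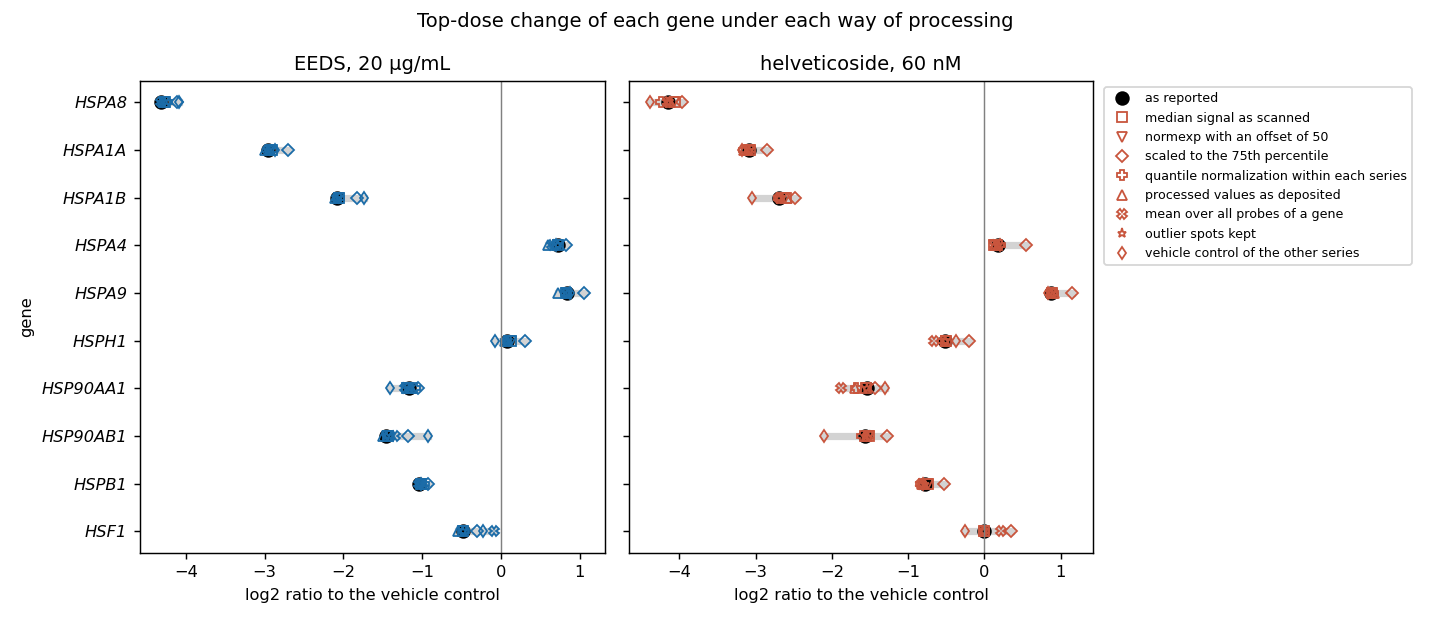
Log2 ratio of each of the 10 genes to the control at the top EEDS dose (left) and the top helveticoside dose (right), as reported (black) and under 8 other ways of processing (open symbols; the grey bar spans them). HSPA8, HSPA1A and HSPA1B stay at -1.73 or lower throughout, and HSF1 lies on both sides of 0 with helveticoside.

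The agents were set side by side by the slope of the log2 signal per dose step. The slopes come from the same arrays as the ratios that chose the genes, so they are a description and no p is given for the 10 genes. Because the doses are in different units, a step of one agent has no equivalent in the other. HSPA8 had a slope of -1.41 per step with EEDS and of -1.46 with helveticoside, a difference of -0.04 with an SE of 0.30 (limma). For HSPA1A the slopes were -0.93 and -1.08, for HSP90AA1 -0.43 and -0.61 and for HSPA9 0.30 and 0.31. The differences, helveticoside minus EEDS, ran from -0.27 in HSPA1B (SE 0.35) to 0.15 in HSF1 (SE 0.11). Among all genes limma called 0 differences, and 526 genes, 2.76%, had an unadjusted p under 0.05. With SEs of 0.11 to 0.35 per step, the values do not show that the agents act alike. The doses cannot be matched, so the single-dose ratios above are set side by side only.

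The genes with the pattern most like that of HSPA8, by the root mean square difference of the log2 ratios over the 6 treated arrays, were B4GALNT1 (0.31), GPRIN2 (0.46), DPYSL5 (0.50), MSTO1 (0.52) and RIMBP3 (0.71). HSPA1A stood 11th in that order, at 0.86, and HSPA1B 47th, at 1.27. Among the genes with a pattern like that of HSP90AA1 were GALNT10 (0.14), CA11 (0.15), SLC23A1 (0.16) and GYG2 (0.17). HSP90AB1 stood 26th, at 0.26, and HSPB1 364th, at 0.47. The order is a description over 6 arrays, which share their controls in groups of 3.

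The wider chaperone machinery was taken from lists of 67 further genes, of which 63 were measured and 51 were well above background on all arrays. The lists were drawn up with earlier results of these data known, so their shares are given as a description. By the slope per dose step in limma, 4 of the 63 rose and 8 fell with EEDS, that is 6.35% and 12.7%, beside 7.27% and 7.9% of all genes. With helveticoside 1 rose and 6 fell, 1.59% and 9.52%, beside 5.47% and 5.83% of all genes. These shares of all genes stand beside the counts of each list below too. The share of all genes called with both agents was not computed, so nothing is read from calls that the agents share. The median log2 ratio of the 63 genes was -0.10 at the top EEDS dose and -0.13 at the top helveticoside dose, close to the 0.02 and -0.00 of all genes. The calls rest on the spread of all 8 arrays about their trend lines, which includes any departure from a straight line. A gene that changed at the lowest dose and then stayed level can therefore miss the test. Without the lowest, the middle or the top dose, or with the 4 arrays of a series alone, limma called 0 genes of any kind. Fewer arrays enter these fits, so nothing about the lists is read from them.

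**Figure D4:**
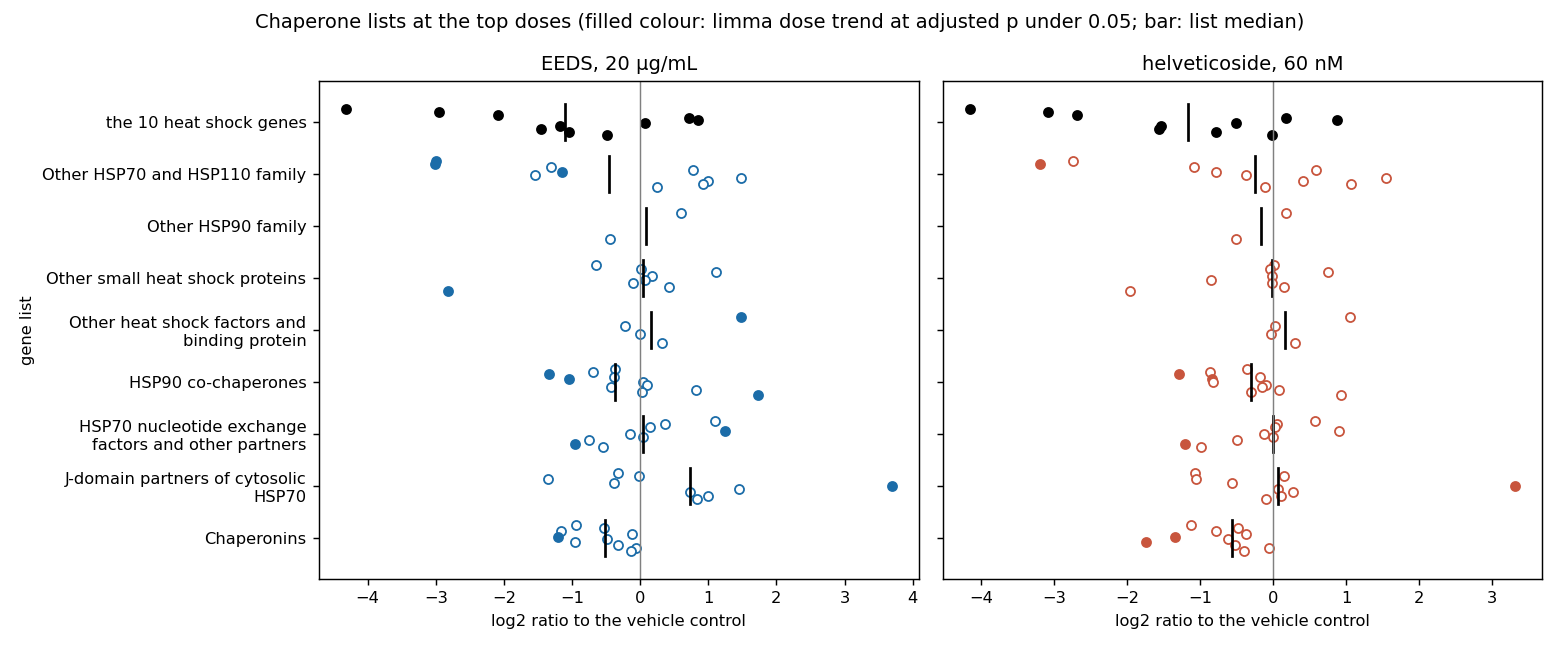
Log2 ratio to the control at the top EEDS dose (left, blue) and the top helveticoside dose (right, red) for the 10 heat shock genes (black, not tested) and for each further chaperone list; 1 point a gene, filled where the limma dose trend had an adjusted p under 0.05, with a bar at the median. The heat shock genes have medians of -1.11 and -1.16, and DNAJB2 lies far to the right of the other J-domain partners.

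Among 10 other HSP70 and HSP110 genes, 3 fell with EEDS and 1 with helveticoside, beside 7.9% and 5.83% of all genes. None rose, beside 7.27% and 5.47% of all genes. HSPA2, a testis-enriched HSP70, had log2 ratios of -1.56, -2.76 and -3.02 along the EEDS doses (limma adjusted p = 0.0284) and of -0.26, -2.32 and -3.20 along the helveticoside doses (limma adjusted p = 0.0273). HSPA12A, a distant relative, fell with EEDS, to -1.15, and had an adjusted p of 0.0660 in limma for helveticoside. HSPA1L also fell with EEDS in limma, but was not well above background on all arrays. HSPA5, the HSP70 of the endoplasmic reticulum also called BiP, did not pass in limma (adjusted p = 0.108 and 0.131), with log2 ratios of -1.31 and -1.09 at the top doses. HSPA13 and HSPA4L stood higher, at 1.48 and 0.91 with EEDS and at 1.54 and 1.07 with helveticoside, and did not pass either. Both remaining HSP90 genes missed the test. HSP90B1, the form of the endoplasmic reticulum, had 0.60 and 0.17 at the top doses, and TRAP1, the mitochondrial form, -0.44 and -0.51.

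Of 8 other small heat shock genes measured, CRYAB, which encodes αB-crystallin, fell with EEDS, with log2 ratios of -0.16, -2.44 and -2.82 (limma adjusted p = 0.0460). With helveticoside it had -1.96 at the top dose and missed the limma threshold (adjusted p = 0.114). CRYAA stood at 0.42 and 0.15 at the top doses and was not called. Only 2 of these 8 genes were well above background on all arrays. Among 4 genes for other heat shock factors and the HSF1-binding protein HSBP1, HSF2 rose with EEDS to 1.48 (limma adjusted p = 0.0265) and stood at 1.06 with helveticoside (limma adjusted p = 0.0607). HSBP1 stood at 0.32 and 0.30 and was not called.

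Of 11 HSP90 co-chaperones measured, 2 fell with EEDS and the same 2 with helveticoside, beside 7.9% and 5.83% of all genes. AHSA1, which stimulates the ATPase of HSP90, had log2 ratios of -0.63, -1.20 and -1.34 with EEDS (limma adjusted p = 0.0238) and of -0.32, -1.12 and -1.29 with helveticoside (limma adjusted p = 0.0281). FKBP4, an immunophilin of steroid receptor complexes, stood at -1.05 and -0.84 at the top doses (limma adjusted p = 0.0343 and 0.0480). CDC37L1, a relative of the kinase adaptor CDC37, rose with EEDS to 1.72 and stood at 0.93 with helveticoside. CDC37 itself stood at -0.69 and -0.86 and CHORDC1 at 0.82 and 0.07, and neither was called.

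Among 9 further HSP70 partners, ST13, which encodes the HSP70-interacting protein Hip, fell with both agents, to -0.96 and -1.21 (limma adjusted p = 0.0284 and 0.0273). BAG4 rose with EEDS, to 1.24. BAG1, at 1.10 and 0.58, and SIL1, the exchange factor of BiP, at -0.54 and -0.99, were not called. Of 9 J-domain partners, DNAJB2 rose with both agents, with log2 ratios of 0.96, 2.48 and 3.69 along the EEDS doses and of -0.08, 1.96 and 3.32 along the helveticoside doses (limma adjusted p = 0.0191 and 0.0253). DNAJB2 binds ubiquitinated clients of HSP70 and is best known from neurons. DNAJB1, the main stress-inducible J-domain protein, stood at -0.39 and -0.57, DNAJA1 at -0.33 and -1.07 and DNAJB5 at 0.73 and 0.27, and none of these was called.

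Chaperonins enclose folding proteins in a chamber. Of 10 measured genes, CCT3, a subunit of the cytosolic ring, fell with EEDS to -1.21 (limma adjusted p = 0.0344) and with helveticoside to -1.34 (limma adjusted p = 0.0323). CCT5 fell with helveticoside in limma, but was not well above background on all arrays. HSPD1, the mitochondrial chaperonin, had -0.94 and -1.13 at the top doses and was not called (limma adjusted p = 0.0720 and 0.0609).

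On the arrays as a whole, 54.5% to 64.9% of probes were well above background and no spot was saturated. The helveticoside arrays had the lower shares, 54.5% to 59.5%, against 63.3% to 64.9%. Of 10 A549 and lung epithelial markers, 9 were well above background on all arrays, including KRT8, KRT18 and the aldo-keto reductases AKR1B10 and AKR1C1, and their summed normalized signal ran from 575600 to 1187000. Of 10 measured markers of leukocytes, endothelium, fibroblasts and red cells, 6 were well above background on no array, among them CD3E, PECAM1 and HBB, while PTPRC, CDH5 and COL1A1 were on all 8. The summed signal of these 10 was 527 to 951, and their part in the results was not tested.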

How the data were processed

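Total RNA of A549 cells, pooled from 3 cultures per array, was labelled and hybridized to 8 one-colour Agilent 44K whole human genome arrays. The authors deposited the linear intensity of every spot as Agilent Feature Extraction wrote it, with a processed, background-subtracted signal and flags for outliers, saturation and detection. A deposited table of intensity values, normalized by the authors within each series, served as an alternative. The files give no slide or scan batch.

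Control and outlier spots were dropped, repeated spots of a probe were averaged on the processed signal, and 34105 probes were quantile-normalized over the 8 arrays and put on the log2 scale. By accession, 24809 probes matched 19053 genes of RefSeq. A gene was read from its brightest probe, and 19043 genes were kept whose median signal reached 1.4 times the local background on 1 or more arrays of each series; values under that limit were raised to the lowest detected signal of their array where lower. The number of arrays limits the precision. The members, the chaperone lists and the markers were chosen with earlier results of these data known. HSPB11, SUGT1, GRPEL1 and GRPEL2 of the lists were not analysed here. Named list genes were the 2 largest rises and falls per list at the top helveticoside dose and list genes past the trend test. For HSPA8 and HSP90AA1 the 5 genes nearest in pattern were named, and 1 of them is not reported here.

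Dose trends were fitted with limma 3.58.1 (R 4.3.3, statmod 1.5.0; trend and robust estimation) to all 8 arrays: each series had its own intercept and its own slope on the dose step (0, 1, 2 and 3), which left 4 residual degrees of freedom. P-values were adjusted by Benjamini-Hochberg over 19043 genes at 0.05, and measure the scatter of single pooled arrays about the lines, since replicate cultures were not hybridized separately. That scatter includes any departure from a straight line. A gene changed by the same amount at every dose can therefore miss the threshold. Alternatives were the scanned median signal, normexp (offset 50), 75th-percentile scaling, quantile normalization within each series, the deposited values, the mean over probes, outlier spots kept, the control of the other series, only detected genes, fold thresholds of 1.5 and 3, and fits without a dose or with 1 series. Promoter windows are those of RefSeq on GRCh38.p14. Python 3.11.15, numpy 2.4.6, pandas 2.3.3 and matplotlib 3.10.9 were used.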

Additional observations from a re-analysis of the deposited data

How the results depend on the processing

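No paired analysis was possible because each dose had 1 array and the labels carry no replicate numbers. Of 480 recomputed log2 ratios of the 10 genes, 474 differed from the reported value by less than the spread between controls. The other 6 were those of HSP90AB1 against the control of the other series. The ratios that changed sign were all smaller than that spread as reported. They were those of HSF1 at 5 μg/mL EEDS (-0.13 to 0.13) and at 3.75 nM (-0.36 to 0.09), 15 nM (-0.03 to 0.59) and 60 nM helveticoside (-0.26 to 0.34), HSPA4 at 5 μg/mL EEDS (-0.16 to 0.15), HSPB1 at 3.75 nM helveticoside (-0.10 to 0.19) and HSPH1 at 20 μg/mL EEDS (-0.07 to 0.31). Scaling to the 75th percentile moved the median of all genes most at 20 μg/mL EEDS, from 0.02 to -0.36. At 1.25 μg/mL EEDS it moved the share of lower genes among all genes past 2-fold from 46.8% to 61.7%.

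With a 3-fold threshold 3 of the 10 genes were lower at the top dose of each agent. With a 1.5-fold threshold 2 genes were higher with EEDS and 1 with helveticoside. The shares of all genes past 3-fold and 1.5-fold were not computed, so nothing is read from these counts. With scaling to the 75th percentile 1 gene was more than 2-fold higher at the top dose of each agent. Of all 19043 genes, 2399 were so with EEDS and 1900 with helveticoside. The median of the 63 chaperone genes was -0.21 at the top EEDS dose after scaling to the 75th percentile and -0.32 at the top helveticoside dose against the other control. Rising chaperone genes with helveticoside numbered 2 with the scanned signal, with normexp and with 75th-percentile scaling, and 4 when the test was run on clearly detected genes alone. Of all 19043 genes, 1246 rose with helveticoside after 75th-percentile scaling. For the other settings the share of all genes is not given here, so nothing is read from these counts. Rising and falling counts for both agents were 0 without the lowest, the middle or the top dose and with only the 4 arrays of the series, where limma called 0 genes of all. Fewer arrays and residual degrees of freedom enter these fits. The 5 members lowest at the middle dose of both agents became 4 with 75th-percentile scaling. That scaling was planned, whereas the middle-dose count itself was added after seeing the data. The other alternatives left the remaining counts and medians within 1.5 times or 0.1 log2 of those reported. Single arrays, without replicates, limit every value.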
